A study of Mus musculus with 12 samples.

Results

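Broad H3K4me3 domains are the 658 peaks of 3500 bp or more among the 13589 H3K4me3 peaks listed for vehicle-treated C2C12 cells, chosen by the width of that peak alone. C2C12 cells are an established line of mouse myoblasts, muscle precursors that form myotubes once serum is reduced. The S2101 group received the LSD1 inhibitor S2101 at 10 µM for 48 h in low-serum differentiation medium, and the vehicle group received the same medium with vehicle for 48 h, both up to day 2. H3K4me1, H3K4me2 and H3K4me3 were mapped by chromatin immunoprecipitation and sequencing (ChIP-seq) with 1 library per mark and treatment, and the 6 resulting peak lists hold 134900 peaks in all. H3K4me1 and H3K4me2 came from experiment 1 and H3K4me3 from experiment 2, so a difference between H3K4me3 and the other marks cannot be told apart from one between experiments. The labels describe the H3K4me3 cells as differentiating myoblasts and do not say how many cultures went into a library.

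Trimethylated H3K4 is written around active and poised transcription start sites by SET1 and MLL complexes. Most promoters carry a short stretch of it, and unusually long stretches have been tied in many cell types to genes of cell identity. Dimethylated H3K4 overlaps and borders it, and monomethylated H3K4 marks enhancers and the outer shoulders of promoters. The demethylase LSD1 (Kdm1a) acts on the mono- and dimethylated forms of H3K4 and not on the trimethylated one. The domains give long stretches of H3K4me3 in which the lower methylation states with the inhibitor can be set beside those with vehicle.

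No read counts were used, so the depth of each library is unknown, and the part of depth and enrichment in any difference between lists was not tested. The S2101 lists held 20664 H3K4me1, 24444 H3K4me2 and 14324 H3K4me3 peaks, and the vehicle lists 40432, 21447 and 13589. Median widths over the whole lists were 384 bp (S2101) and 535 bp (vehicle) for H3K4me1, 552 and 1342 bp for H3K4me2, and 1737 and 1668 bp for H3K4me3. Every difference between S2101 and vehicle rests on 1 library a side and has no replicate check. Intervals on shares of domains are 95% Wilson intervals for counting error only, since the domains share 1 library. How far a value varied within these libraries is shown by its SD over the 19 autosomes. Positions are on mm9, and no gene names are attached, because the gene table at hand is of another build.

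The domains made up 4.84% of the vehicle H3K4me3 peaks and 11.99% of the bases under them, 2.93 Mb. Their median width was 4103 bp (quartiles 3768 and 4688 bp), against 1623 bp for the 12931 narrower peaks. Most were only moderately wide: 280 measured under 4000 bp, 253 measured 4000 to 4999 bp, and 125 measured 5000 bp or more, up to 10066 bp. The authors' peak score, which ranks peaks within a list, was 3100 or more in 653 of the 658 domains and in 54.3% of narrower peaks, so it hardly orders the domains. The 3 domains just inside the threshold were chr1:92100424-92103923 (3500 bp), chr6:148892233-148895733 (3501 bp) and chr11:59475208-59478711 (3504 bp). The 3 peaks just outside were chr10:110943473-110946971 (3499 bp), chr4:54959554-54963051 (3498 bp) and chr7:108078353-108081850 (3498 bp). S2101 H3K4me2 covered 1609, 2619 and 1802 bp of those inside and 1727, 2413 and 2550 bp of those outside, and these ranges overlap.

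H3K4me3 itself was listed over all 658 domains with S2101, across 98.6% of their bases (SD over autosomes 0.429 percentage points). Narrower peaks had 97.1% of their bases under S2101 H3K4me3, and the broad domains stood higher on 19 of 19 autosomes. S2101 peaks covered 302 domains in full, 45.9% of them, against 48.1% of narrower peaks, and by this measure the broad share was the higher on 6 of 19 autosomes. They covered less than 90% of a domain in 12 cases, 1.82% of the domains, beside 8.38% of all vehicle H3K4me3 peaks, and never less than 50%. The same shift of an edge takes a smaller share of a wider peak, so the edges were measured as well. Among the 573 domains with a single partner on both sides, the S2101 edge lay 50 bp farther out at the median (quartiles -21 and 153 bp), compared with 43 bp for narrower peaks (quartiles -15 and 119 bp). The median ratio of S2101 to vehicle width was 1.03 for these domains, with quartiles of 0.995 and 1.07, and 1.06 for narrower peaks. The S2101 peak was the wider in 71.9% of the domains and in 74.8% of narrower peaks. Since the members were picked for their width in the vehicle library, these ratios are a description only.

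Broad H3K4me3 was thus listed in much the same places in both lists. An S2101 peak of 3500 bp or more lay over 616 of the 658 domains (93.6%), and 613 of the 884 S2101 peaks of that width (69.3%) lay over one of them. The vehicle domain was divided over several S2101 peaks in 35 of the 658 cases, beside 189 of the 12931 narrower peaks, a larger share in broad domains. These counts are not matched for width. The least covered domain, chr2:125329232-125332818, had 2679 of its 3587 bp under S2101 H3K4me3. Next came chr7:106497583-106502323 with 3971 of 4741 bp, chr14:27486556-27490382 with 3229 of 3827 bp, chr10:67009287-67012843 with 3050 of 3557 bp, and chr16:91727795-91731710 with 3381 of 3916 bp. None of these 5 had S2101 H3K4me1, which overlapped only 14.4% of all 658 domains. S2101 H3K4me2 covered between 1527 and 2520 bp of these 5, against 2919 to 4401 bp with vehicle.

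**Figure D1:**
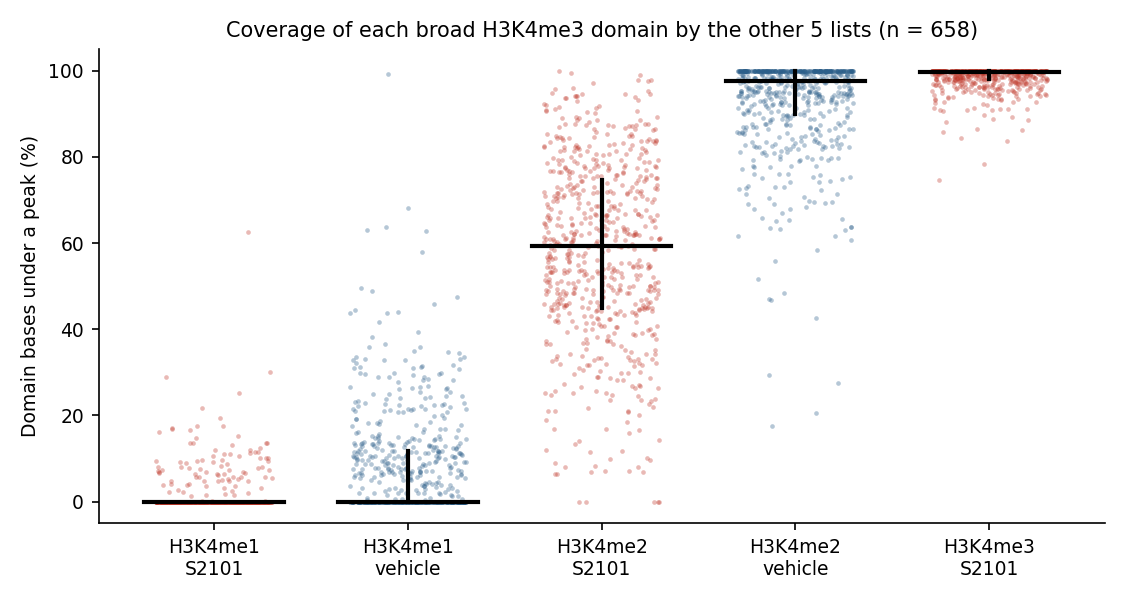
Share of each broad domain's bases (y axis, %) under the peaks of the other 5 lists, 1 point per domain, with a black horizontal line at the median and a vertical line between the quartiles; points are spread sideways for sight only. S2101 H3K4me3 sits near 100%, H3K4me2 has medians of 59.3% with S2101 and 97.6% with vehicle, and the medians of both H3K4me1 lists are 0.

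H3K4me2 was the mark that differed most in the number of covered bases. As a ratio of S2101 to vehicle bases, H3K4me1 differed more, at 0.175. All 658 domains held a vehicle H3K4me2 peak, and 653 held an S2101 one. S2101 H3K4me2 peaks covered 58.3% of the domain bases (SD over autosomes 8.50 percentage points) and vehicle peaks 92.8% (SD 2.22), a ratio of 0.628. Per domain the median covered share was 59.3% with S2101 (quartiles 45.0 and 74.6%) and 97.6% with vehicle (quartiles 89.9 and 100%). No domain had more H3K4me2 bases with S2101 than with vehicle, and only 0.658% of narrower peaks with vehicle H3K4me2 did. Of the S2101 H3K4me2 bases in the domains, 99.8% lay under a vehicle H3K4me2 peak, against 99.2% in narrower peaks. With vehicle peaks over 92.8% of the domain bases, a high share is largely given in advance.

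The overall shortfall in bases was about the same as in narrower H3K4me3 peaks. Narrower peaks had 56.8% of their bases under S2101 H3K4me2 and 92.0% under vehicle H3K4me2, a ratio of 0.617, while the ratio over the whole H3K4me2 lists was 0.467. S2101 covered 62.7% of the vehicle H3K4me2 bases in broad domains and 61.2% in narrower peaks. This difference of 1.52 percentage points was smaller than its SD over autosomes, 4.21 points. The ratio of broad domains was above that of narrower peaks on 6 of 19 autosomes, with autosome means of 0.616 and 0.623, so the sign of the small difference depended on how chromosomes were weighted. S2101 H3K4me2 bases stood at 50% or less of the vehicle's in 174 domains, 26.4% of them, beside 27.4% of all vehicle H3K4me3 peaks with vehicle H3K4me2. Complete absence was the exception: 5 domains, 0.760%, had vehicle H3K4me2 and no S2101 peak, beside 7.33% of all such peaks. A wider peak offers more bases for an overlap, so the last share is not matched for width. Of the 5 domains, only chr7:74514924-74518683 had vehicle H3K4me2 over at least 50% of its bases, as 650 of all domains did. The rest of the 5 were among the 8 domains where vehicle H3K4me2 covered less than 50%. The width classes between 1000 and 10066 bp all had ratios between 0.608 and 0.671.

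With S2101, H3K4me2 within a broad domain was a row of short peaks in place of 1 or 2 long ones. The domains held 3.17 ± 1.30 S2101 H3K4me2 peaks on average and 1.62 ± 0.666 vehicle peaks (SD over domains, n = 658). At least 2 S2101 peaks were found in 614 domains (93.3%, 91.1 to 94.98%) and at least 4 in 230 (34.95%), against 46.9% and 1.25% of narrower peaks. At least 2 vehicle peaks were found in 53.0% of the domains and in 18.1% of narrower peaks. None of these shares is matched for width. Of the 4044 narrower peaks of at least 2000 bp, 99 held no S2101 H3K4me2 peak and 702 held 1, and the rest held more. With peaks 500 bp or less apart joined, the share of broad domains with at least 2 S2101 peaks was 59.1%. The pieces follow the lists as a whole, in which S2101 H3K4me2 peaks were also shorter and more numerous than vehicle ones. For vehicle H3K4me2, 309 domains held a single peak. From end to end, 1 domain lay inside a single S2101 peak (0.152%) and 227 inside a single vehicle peak (34.5%), against 2.06% and 51.9% of narrower peaks. The last comparison is not matched for width either. The longest S2101 H3K4me2 piece took up 27.8% of a domain at the median (quartiles 19.9 and 38.7%), and the longest vehicle piece 77.0% (quartiles 57.0 and 100%). Pieces measured 651 bp at the median with S2101 and 2215 bp with vehicle.

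Many of the breaks between S2101 pieces were short. The 1433 gaps had a median of 226 bp (quartiles 71 and 649 bp) and reached 4554 bp. Vehicle H3K4me2 covered 81.5% of the bases in these gaps, less than its 92.8% of all domain bases. S2101 H3K4me3 covered 99.8% of the gap bases and 98.6% of all domain bases. The gaps lie inside vehicle H3K4me3 peaks by construction. The number of S2101 pieces grew with width, and the vehicle number hardly did. Means were 2.76 S2101 and 1.58 vehicle peaks in domains of 3500 to 3999 bp, 3.13 and 1.63 at 4000 to 4999 bp, 3.81 and 1.50 at 5000 to 5999 bp, and 4.68 and 1.96 from 6000 bp up. Per kb, broad domains held 0.713 S2101 and 0.364 vehicle H3K4me2 peaks, against 0.812 and 0.565 in narrower peaks of at least 2000 bp. Both densities were lower in broad domains, and both fell with width over all 8 classes, to 0.642 S2101 and 0.269 vehicle peaks per kb in the widest, against 1.09 and 1.26 in peaks under 1000 bp.

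**Figure D2:**
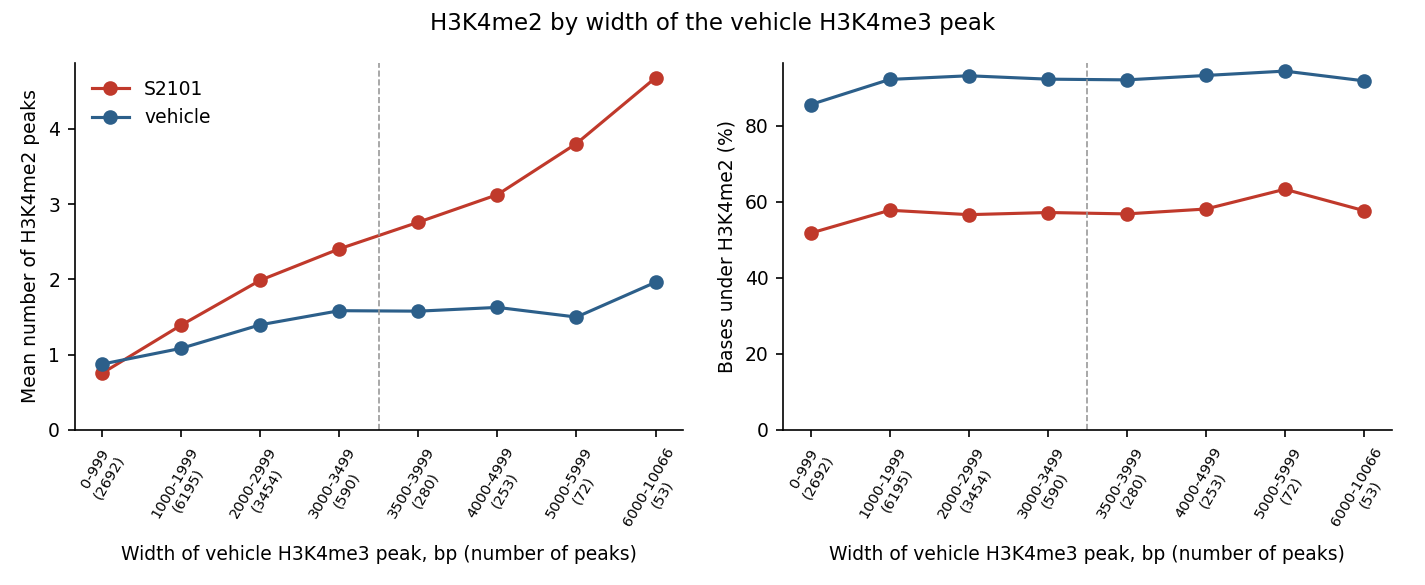
Mean number of H3K4me2 peaks (left) and share of bases under H3K4me2 (right, %) for vehicle H3K4me3 peaks in 8 width classes (x axis, bp, with the number of peaks in brackets), S2101 in red and vehicle in blue; the dashed line marks 3500 bp. The number of S2101 peaks goes up to 4.68 in the widest class while the covered share stays between 51.8 and 63.3% with S2101 and between 85.6 and 94.4% with vehicle.

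Within the domains, S2101 H3K4me2 was lowest at the rim. In the outermost 250 bp on each side, S2101 peaks covered 40.2% of bases and vehicle peaks 93.8%, a ratio of 0.429. From 250 to 1000 bp inside, the shares were 65.2% and 96.0% (ratio 0.679), and beyond 1000 bp from both edges 57.8% and 90.7% (ratio 0.638). Just outside, in the 1 kb beyond each edge, S2101 H3K4me2 covered 8.32% and vehicle H3K4me2 40.5%, a ratio of 0.206. The same order held in narrower peaks of at least 2000 bp, with 38.5% and 92.3% in the outermost 250 bp, and 66.2% and 95.03% from 250 to 1000 bp inside. The inner part differed. Beyond 1000 bp from both edges, S2101 H3K4me2 covered 57.8% in broad domains and 47.2% in these narrower peaks, higher in broad domains on 18 of 19 autosomes. For vehicle H3K4me2 the inner shares were 90.7% and 88.0%, higher in broad domains on 14 of 19 autosomes. In narrower peaks that inner part is a short strip at the midpoint, so it is not the same kind of place as the long interior of a broad domain.

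**Figure D3:**
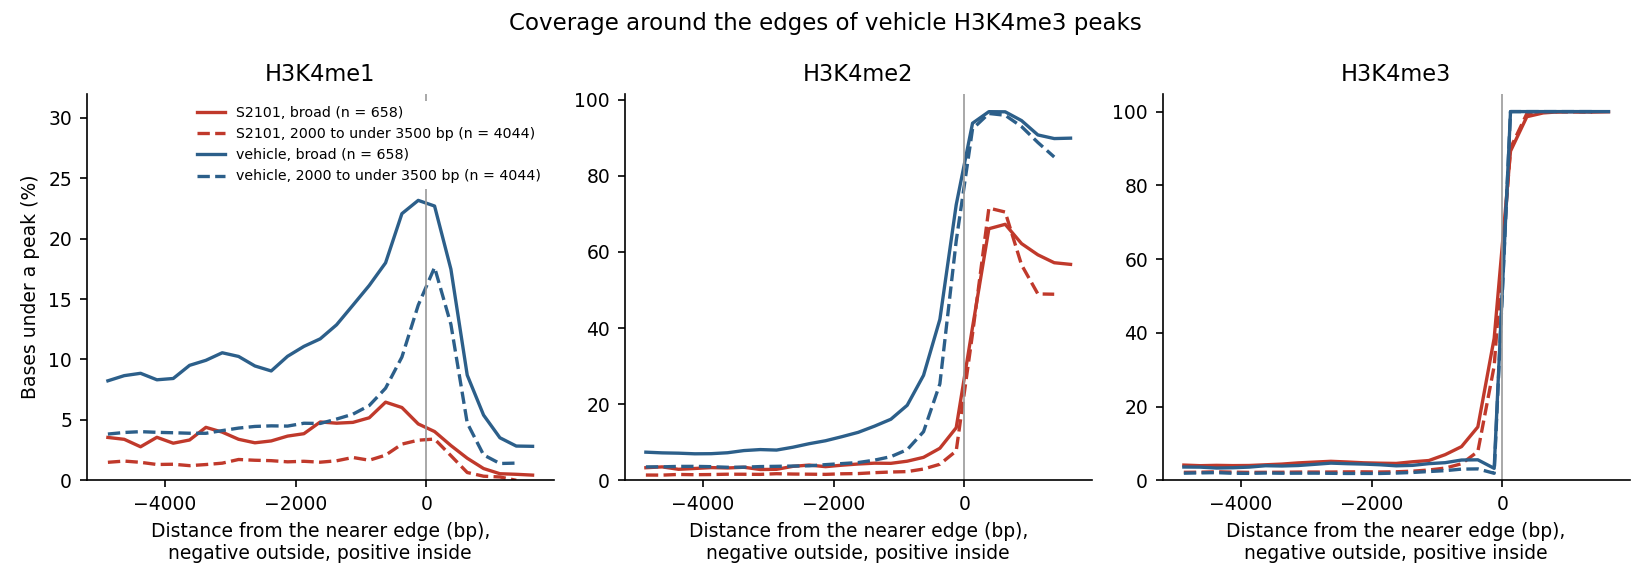
Share of bases under a peak (y axis, %) in steps of 250 bp around the edges of vehicle H3K4me3 peaks, both edges together, with negative distances outside and positive ones inside (x axis, bp); solid lines are broad domains, dashed lines narrower peaks of at least 2000 bp (inside, those wide enough for the step), S2101 in red and vehicle in blue. Vehicle H3K4me1 peaks at 23.2% just outside the broad edge, H3K4me2 with S2101 is at 40.2% in the first step inside, and H3K4me3 of the vehicle list is 100% inside by construction.

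The widest domains showed how far single domains departed from these averages. The widest, chr1:148339931-148349996, was the least dimethylated of the 10 widest: S2101 H3K4me2 covered 997 of its 10066 bp in 2 peaks and vehicle H3K4me2 4743 bp in 2 peaks, and no H3K4me1 lay within it in either list. The vehicle H3K4me2 left its last part bare while H3K4me3 ran through to the end in both lists. By contrast, chr1:82279211-82289041 had all of its 9831 bp inside 1 vehicle H3K4me2 peak, and S2101 H3K4me2 covered 6736 bp in 5 peaks. The domain chr3:137727360-137736516 kept most: S2101 H3K4me2 covered 8616 of 9157 bp in 7 closely set peaks, and the vehicle list had 1 peak over all of it.

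On chromosome 5, chr5:123585560-123595013 held 9 S2101 H3K4me2 peaks over 7241 bp and 1 vehicle peak over its 9454 bp. As many S2101 peaks, 9, were found in chr17:34253235-34261389, over 4535 bp, where vehicle H3K4me2 covered 7985 of 8155 bp in 3 peaks. The domain chr15:85498865-85508286 had 6932 bp under 8 S2101 peaks and 8956 bp under 2 vehicle peaks. In chr4:88579214-88588461 the values were 5655 bp in 8 S2101 peaks and all 9248 bp in 1 vehicle peak. The 4 remaining domains among the 10 widest, on chromosomes 19, 12, 4 and 5, had between 3452 and 4847 bp under S2101 H3K4me2 and between 6414 and 8313 bp under vehicle H3K4me2. S2101 H3K4me3 covered 96.0 to 100% of the bases of all 10.

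**Figure D4:**
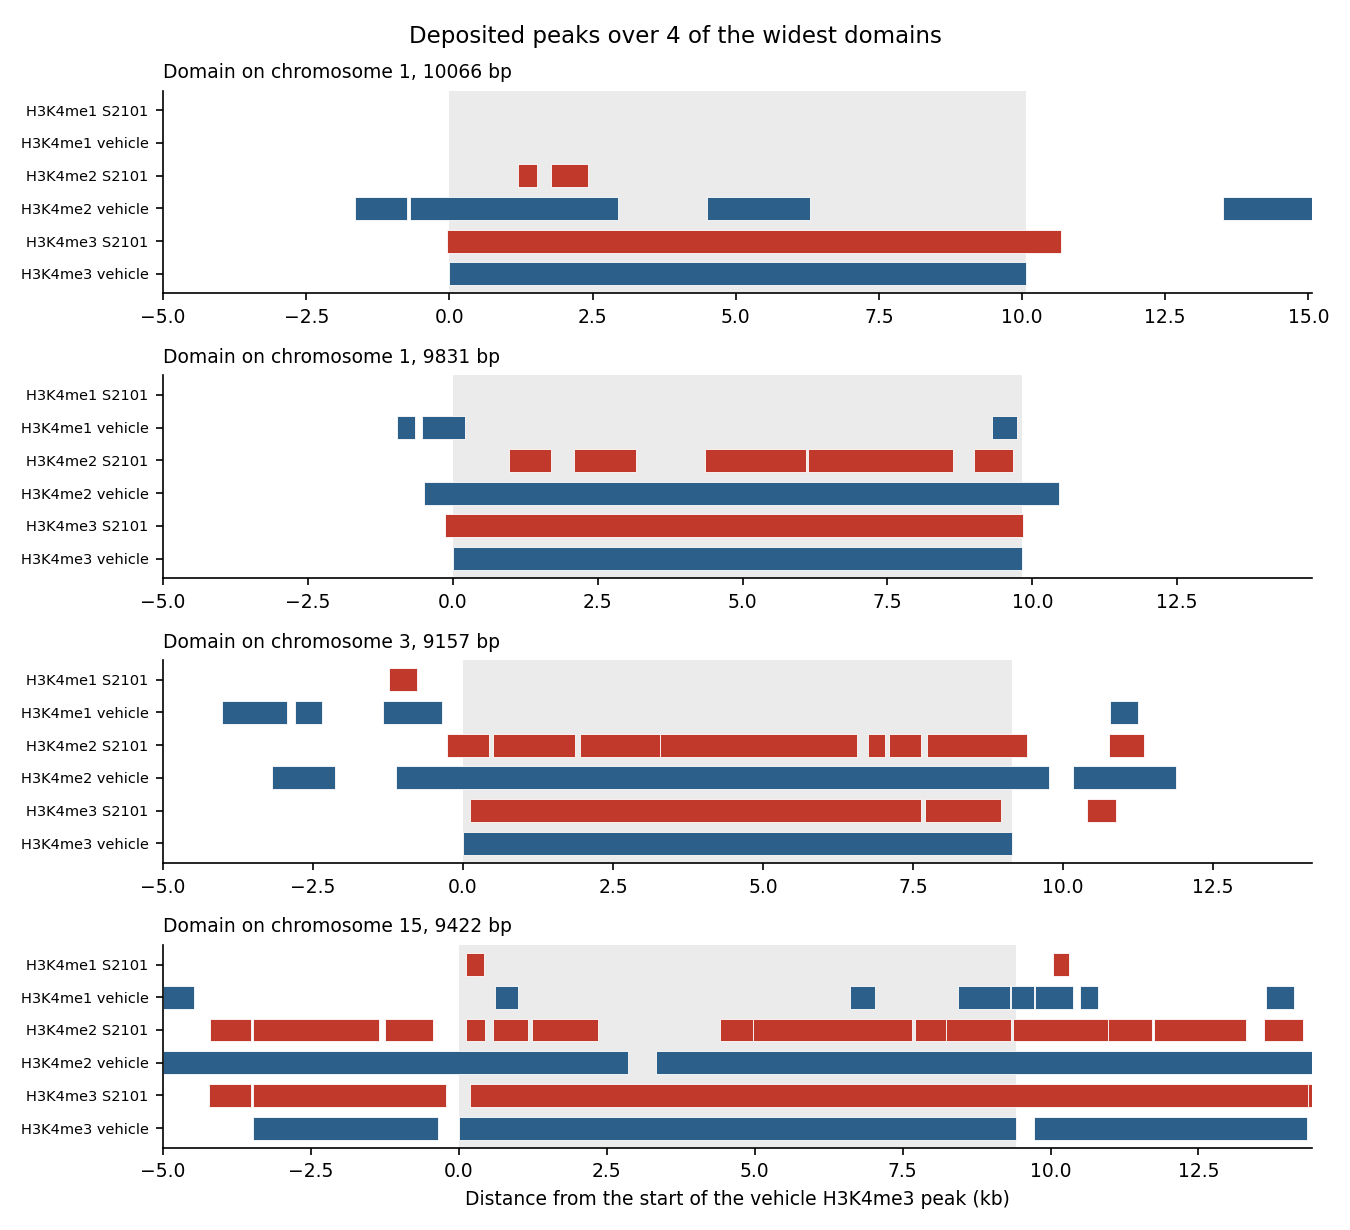
Deposited peaks of the 6 lists over 4 of the 10 widest domains, as distance from the start of the vehicle H3K4me3 peak (x axis, kb), S2101 in red above vehicle in blue for each mark, with the domain shaded. The H3K4me2 of the vehicle list runs unbroken through the domains of 9831 and 9157 bp, and with S2101 it is a row of 5 and 7 peaks there and 2 peaks in the domain of 10066 bp.

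At the extremes, H3K4me2 ranged from fully absent to fully present with S2101. Among the 650 domains with vehicle H3K4me2 over at least 50% of their bases, chr7:74514924-74518683 had no S2101 H3K4me2, against 2599 bp with vehicle. S2101 H3K4me2 covered 225 bp of chr17:29230431-29233937, against 3490 bp with vehicle, and 377 bp of chr13:29040833-29046244, against 4990 bp. It covered 347 bp of chr6:108610593-108614925, against 4302 bp with vehicle, and 441 bp of chr1:20660178-20665651, against 5000 bp. H3K4me3 stayed listed there with S2101, over 97.7 to 100% of the bases of these 5 domains. At the other end, chr8:86262041-86265960 was under 1 S2101 and 1 vehicle H3K4me2 peak over all 3920 bp. Next to it in kept share were chr17:36001971-36007881 (5886 bp with S2101, 5911 bp with vehicle), chr13:63664094-63668120 (3915 and 3949 bp), chr15:78672621-78676612 (3955 and 3992 bp) and chr8:87499605-87505165 (5445 and 5561 bp). Both extremes were less frequent among broad domains than among narrower peaks. S2101 peaks covered 90% or more of the vehicle H3K4me2 bases in 33 domains (5.02%), against 9.42% of narrower peaks and beside 9.2% of all vehicle H3K4me3 peaks with vehicle H3K4me2, with the broad share higher on 2 of 19 autosomes. They covered less than 25% in 37 domains (5.62%), against 10.6% of narrower peaks and beside 10.4% of all, with the broad share higher on 4 of 19 autosomes. These shares are not matched for width.

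H3K4me1, the mark of enhancers and promoter shoulders, lay within fewer broad domains with S2101 than with vehicle. An S2101 H3K4me1 peak overlapped 95 domains (14.4%, 11.96 to 17.3%) and a vehicle H3K4me1 peak 324 (49.2%, 45.4 to 53.1%). For narrower peaks the shares were 9.48% and 33.0%. These shares depended on what counted as a peak: with a score of 200 or more they were 4.10% (S2101) and 26.9% (vehicle) of the domains, and 4.86% and 30.7% where at least 10% of a domain had to be covered. With lists cut to equal length the vehicle share was 31.3%. The broad share was the higher on 15 of 19 autosomes with S2101 and on 18 of 19 with vehicle. Measured in bases the order between broad and narrower turned round: S2101 H3K4me1 covered 1.34% of broad domains and 1.64% of narrower peaks, and vehicle H3K4me1 7.63% and 9.18%. Neither the overlap shares nor the shares of bases are matched for width. By width class, vehicle H3K4me1 covered 16.7% of bases in peaks under 1000 bp and 7.24% at 3000 to 3499 bp. In the classes from 3500 bp up it covered 6.33 to 9.07%. For S2101 H3K4me1 these were 3.51%, 1.36%, and 0.845 to 2.57%. The ratio of S2101 to vehicle bases was 0.175 in broad domains and 0.179 in narrower peaks, against 0.347 over the whole H3K4me1 lists. Of the 324 domains with vehicle H3K4me1, 245 (75.6%) had no S2101 H3K4me1, beside 77.8% of all vehicle H3K4me3 peaks with the mark. The other combinations were 79 domains with H3K4me1 in both lists, 16 with S2101 only, and 318 with neither.

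H3K4me1 was concentrated at the shoulders. In the outer 500 bp of the domains it covered 3.46% of bases with S2101 and 20.1% with vehicle, and farther in 0.724% and 4.02%. For narrower peaks of at least 2000 bp these were 2.73% and 15.3%, and farther in 0.405% and 2.69%. Broad domains were the higher in the outer 500 bp on 11 of 19 autosomes with S2101 and 15 with vehicle. Farther in, they were the higher on 10 and 14. In the 1 kb outside each edge of the domains, H3K4me1 covered 5.58% with S2101 (SD over autosomes 2.94 percentage points) and 19.8% with vehicle (SD 8.01). Narrower peaks of at least 2000 bp had 2.52% with S2101 and 9.62% with vehicle in the same flank, lower than the broad domains on all 19 autosomes in both lists. From 1 to 5 kb outside, broad domains still had 3.73% and 10.1%, against 1.52% and 4.34% around the narrower peaks. The S2101 to vehicle ratio in the first kb was 0.281 beside broad domains and 0.261 beside narrower peaks, so broad domains had more flanking H3K4me1 in each list with a similar ratio between the lists. Vehicle H3K4me1 was highest in the first 250 bp outside the edge, at 23.2%, and S2101 H3K4me1 at 500 to 750 bp outside, at 6.47%.

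Both flanks carried the mark in few domains. H3K4me1 lay within 1 kb outside both edges in 31 domains with S2101 (4.71%) and in 133 with vehicle (20.2%), and outside 1 edge only in 141 (21.4%) and 240 (36.5%). For narrower peaks, both edges were flanked in 1.58% with S2101 and 8.23% with vehicle.

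A few domains carried H3K4me1 through much of their length. It covered 50% or more of 1 domain with S2101, on chromosome 15, and of 6 with vehicle, 3 of them on chromosome 15. At chr15:85513552-85517379, H3K4me1 covered 2394 of 3828 bp with S2101 and 3798 bp with vehicle, the largest shares in both lists; its H3K4me3 score was 1708. At chr15:101929895-101936887 it covered 951 bp with S2101 and 4765 bp with vehicle, and at chr15:83393058-83396977 361 and 2468 bp. On chromosome 2, chr2:152755494-152759177 had 345 bp with S2101 and 2350 bp with vehicle, and chr10:79563049-79567272 had 708 and 2654 bp. One of the domains richest in S2101 H3K4me1 had more of it than with vehicle: chr10:74522780-74526741, with 1190 and 461 bp. The others among the highest with S2101 were chr15:76027280-76032797 (1602 bp with S2101, 2420 bp with vehicle), chr8:86262041-86265960 (989 and 2268 bp) and chr15:77667636-77672726 (1110 and 1349 bp). In all, H3K4me1 covered 25% or more of 4 domains with S2101 (0.608%) and of 62 with vehicle (9.42%), 21 of the 62 on chromosome 15. For narrower peaks these shares were 2.57% and 16.4%, and the broad share was the higher on 0 of 19 autosomes in either list. These shares are not matched for width, and 25% of a narrower peak takes fewer bases of H3K4me1 than 25% of a broad domain.

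Domains with H3K4me1 kept more of their H3K4me2. The 95 domains with S2101 H3K4me1 had 72.5% of their vehicle H3K4me2 bases under S2101 H3K4me2, the 245 with vehicle H3K4me1 only had 65.9%, and the 318 with neither had 56.9%. Their median widths were 4224, 4088 and 4098 bp, and vehicle H3K4me2 covered 96.2, 94.5 and 90.4% of their bases. Without chromosome 15 the kept shares were 68.4, 64.7 and 56.6%. Domains with vehicle H3K4me1 exceeded those without it on 16 of 19 autosomes, by 7.29 ± 7.31 percentage points (SD over autosomes). Narrower peaks had the same order on 19 of 19 autosomes, by 8.39 ± 3.16 points. Both marks come from experiment 1 and the states were formed from these lists, so the order is a description.

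Broad domains were spread unevenly over the chromosomes. They made up 8.19% of the vehicle H3K4me3 peaks on chromosome 15 (48 of 586, 6.23 to 10.7%) and 3.02% on chromosome 2 (32 of 1058, 2.15 to 4.24%). On chromosome 7 they were 3.07% (30 of 977), and on the X chromosome 2.54% (11 of 433, 1.42 to 4.49%). Chromosome 15 was also where the other marks were fullest: S2101 H3K4me1 overlapped 39.6% and vehicle H3K4me1 81.3% of its 48 domains, and the H3K4me2 ratio of S2101 to vehicle was 0.801. Its narrower peaks were also high, at 27.7% with S2101 H3K4me1, 65.4% with vehicle H3K4me1 and a ratio of 0.758. On chromosome 7 the values were 3.33% and 33.3% of 30 domains and a ratio of 0.450, and in its narrower peaks 2.96%, 13.7% and 0.498. On the X chromosome no domain held H3K4me1 in either list, and the H3K4me2 ratio was 0.378. Narrower peaks of the X chromosome also held little H3K4me1, 0.474% of them with S2101 and 1.90% with vehicle. Their H3K4me2 ratio was 0.214, lower than in the broad domains.

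Narrower peaks differed between chromosomes in the same order of H3K4me2 ratio to a large extent. Across the 19 autosomes, the H3K4me2 ratio of broad domains followed that of narrower peaks (Pearson r = 0.866, Spearman rho = 0.795; r = 0.800 without chromosome 15). It also followed the share of domains with vehicle H3K4me1 (r = 0.695, rho = 0.680; r = 0.569 without chromosome 15). That share in turn followed the share of narrower peaks with vehicle H3K4me1 (r = 0.838, rho = 0.835, and r = 0.769 without chromosome 15). All these points come from the same 4 libraries of experiment 1, so the values are a description.

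**Figure D5:**
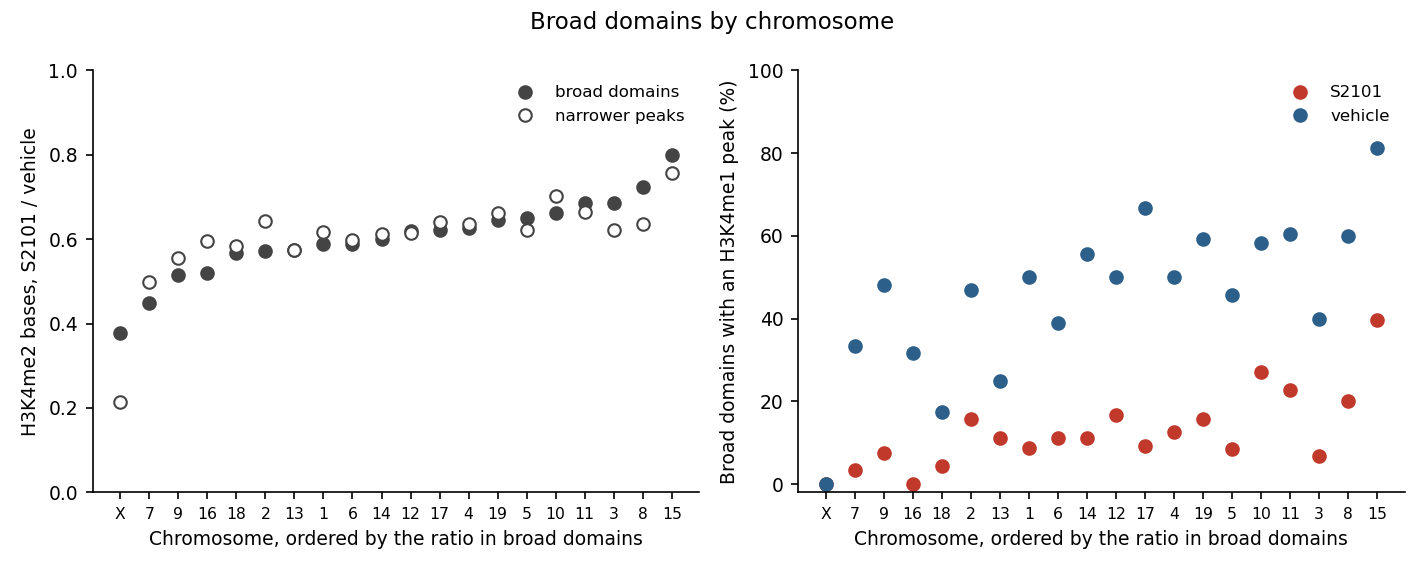
Ratio of H3K4me2 bases, S2101 over vehicle (left), in broad domains (filled) and narrower peaks (open), and share of broad domains with an H3K4me1 peak (right, %), S2101 in red and vehicle in blue, for 19 autosomes and X ordered by the ratio in broad domains. Chromosome 15 is highest in the ratio, at 0.801, and in both H3K4me1 shares, and the X chromosome is lowest in the ratio, at 0.378.

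The surroundings of broad domains held more H3K4me1 and H3K4me2 peaks than those of narrower peaks. Within 50 kb of a domain there were 4.36 S2101 and 6.66 vehicle H3K4me1 peaks away from any H3K4me3 peak on average, with medians of 2 and 4. Around narrower peaks the means were 2.02 and 3.28 and the medians 0 and 2. Means around broad domains were the higher on 19 of 19 autosomes in both lists. Distal H3K4me2 peaks showed the same order, with means of 0.533 (S2101) and 1.04 (vehicle) around broad domains and 0.301 and 0.523 around narrower peaks, again on 19 of 19 autosomes. Nearness of other vehicle H3K4me3 peaks differed less. The next vehicle H3K4me3 peak was 30.3 kb away at the median for broad domains and 24.5 kb for narrower peaks, and it lay within 5 kb for 22.5% and 21.7%.

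Of 4132 vehicle distal H3K4me1 peaks within 50 kb of a broad domain, 40.3% (38.8 to 41.8%) overlapped an S2101 peak, against 35.99% (35.3 to 36.7%) of 18464 near narrower peaks only. Their median scores in the vehicle list were 203 and 186, and the order held on 11 of 19 autosomes. For distal H3K4me2 the shares were 28.6% of 646 and 28.2% of 2894.

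A small number of domains stood in rows. Joined at distances of 10 kb or less, 22 domains formed 9 runs, 3 of them with 3 or more domains. The longest, chr6:52171255-52199635, held 4 domains of 19134 bp in sum, with 15036 bp under S2101 H3K4me2 and 19134 bp under vehicle H3K4me2. Its H3K4me1 was 0 bp with S2101 and 799 bp with vehicle. The run chr15:102783796-102809926 held 3 domains with 15172 of 17106 bp under S2101 H3K4me2 and all 17106 bp under vehicle H3K4me2, and 625 and 1577 bp under H3K4me1. The run chr15:85498865-85517379 held 3 domains with 14731 of 17866 bp under S2101 H3K4me2 and 17400 bp under vehicle H3K4me2. Its H3K4me1 was 2963 bp with S2101 and 7038 bp with vehicle. Not all runs were well covered: chr1:185856714-185866169, with 2 domains of 9446 bp, had 3134 bp under S2101 H3K4me2 and 9035 bp under vehicle H3K4me2.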

How the data were processed

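Peak lists of 6 of the 12 samples were used, 1 per mark and treatment; the 4 inputs and 2 H3 samples were not analysed here. Per the file headers, the authors called peaks with MACS in Galaxy, and each deposited list belongs to 1 library and gives chromosome, start, end, name and score. The score is the authors' value in the deposited files, and the headers do not name its quantity. The submitters' processing notes name Bowtie2, deepTools and the mm9 build. For caller settings, the input used and read numbers, the sources at hand give nothing.

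Members and comparisons were chosen with earlier results of these data known. Covered bases, peak numbers and edge distances were computed with Python 3.11.15, numpy 2.4.6 and pandas 2.3.3, after the interval functions were tested on simulated data against bedtools 2.31.1. Any overlap of 1 bp counted. Kept bases are vehicle bases also under an S2101 peak. Distal peaks overlap no H3K4me3 peak of either list and count by their midpoint for numbers within 50 kb. Starts are printed counted from 1, and the deposited starts were read as counted from 0. Wilson intervals came from scipy 1.17.1, figures from matplotlib 3.10.9. Single regions named are the 10 widest, the extremes of each mark, those at the threshold and, chosen after their values were seen, 4 runs; none is on chromosome 18. The planned gene lists were not counted, for want of an annotation of this build. With 1 library a group no test between treatments was made.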

Additional observations from a re-analysis of the deposited data

How the results depend on the processing

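Of 44 values under other settings, 30 stayed within the SD over autosomes or the counting interval of the reported value and 14 moved. None of the alternatives moved the H3K4me2 ratio, the difference in kept H3K4me2 between broad and narrower peaks, or the H3K4me3 share beyond that SD. That SD is a spread between chromosomes and not an error of the value. The H3K4me2 ratio, 0.628 as reported, was 0.555 with a score of 200 or more in the other lists. It was 0.674 with peaks 500 bp or less apart joined. Lists of equal length could not change the S2101 H3K4me1 share, because that list is the shorter of its pair. The share of domains with 2 or more S2101 H3K4me2 peaks was 90.5% at a width threshold of 3000 bp, 96.0% at 5000 bp, 76.0% with a score of 200 or more in the other lists, 88.6% with lists of equal length, and 59.1% with peaks 500 bp or less apart joined. The share with an S2101 H3K4me1 peak was 21.6% at 5000 bp, 4.10% with the score minimum and 4.86% where 10% of the domain had to be covered. For vehicle H3K4me1 these were 54.4%, 26.9% and 30.7%, and 31.3% with lists of equal length. With domains taken from the S2101 H3K4me3 list, a choice made after seeing the data, 91.1% of 884 held 2 or more S2101 H3K4me2 peaks and 17.6% an S2101 H3K4me1 peak. The cause of these shifts was not tested, beyond fewer or joined peaks where the setting makes them so. No paired analysis was possible because each mark and treatment has 1 library. Unknown depth limits every contrast between lists.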

Other observations

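Of the S2101 H3K4me3 peaks of 3500 bp or more, 271 lay over no broad vehicle domain. Vehicle H3K4me3 covered 87.6% of their bases, 96 of them joined 2 or more vehicle peaks, 174 had a single vehicle peak and 1 had none. The widest vehicle peak there measured 3186 bp at the median, and in 186 cases 3000 bp or more. S2101 H3K4me2 covered 54.3% and vehicle H3K4me2 89.5% of their bases, and H3K4me1 covered 2.32% with S2101 and 9.80% with vehicle.

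H3K4me2 peaks over broad domains were more often high-scoring in their own lists than those over narrower peaks only. Most of them were outside the best-scoring 10% in both lists. Of 2084 S2101 H3K4me2 peaks over broad domains, 18.8% (17.2 to 20.5%) were among the best-scoring 10% of the S2101 list, against 10.8% of 18902 over narrower peaks only. For vehicle, 44.5% (41.5 to 47.5%) of 1059 were in the best 10%, against 11.6% of 14348. Their median widths were 664 bp with S2101 and 2692 bp with vehicle, and a wider peak can score higher, so scores do not compare amounts of the mark.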
